A study of Mus musculus with 6 samples.

Results

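The BCL2 family apoptosis regulators described here are 9 genes in 3 functional classes. *Bcl2*, *Bcl2l1* (encoding BCL-XL) and *Mcl1* oppose cell death, *Bax* and *Bak1* are the effectors, and *Bbc3* (PUMA), *Pmaip1* (NOXA), *Bcl2l11* (BIM) and *Bid* are BH3-only members. The genes were chosen by symbol and located in the count table by Ensembl identifier. All 9 were found among the 20409 features of the table, and all 9 were abundant enough to be tested.

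Proteins of this family meet at the outer membrane of the mitochondrion. BAX and BAK1 permeabilise the membrane, which releases cytochrome c and activates caspases, whereas BCL2, BCL-XL and MCL1 hold them in check. BH3-only proteins carry signals of damage or growth factor loss, either by blocking the protective members or by activating the effectors. In the intestine, PUMA is known for its part in the death of crypt cells after irradiation, and MCL1 for its part in the survival of the epithelium.

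The short BH3 segment is the feature by which the members bind each other, and its coding sequence is shown because it is the part that all 3 classes share. Each stretch holds 9 codons of the sense strand, taken from the GENCODE transcripts of the mm9 mouse genome. Capitals mark the leucine codon, the glycine or alanine codon that follows after 3 others, and the aspartate codon next to it.
Bcl2: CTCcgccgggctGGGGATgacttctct
Bcl2l1: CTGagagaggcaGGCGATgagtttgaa
Mcl1: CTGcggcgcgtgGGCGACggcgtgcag
Bax: CTCcggcgaattGGAGATgaactggac
Bak1: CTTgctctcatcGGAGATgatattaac
Bbc3: CTGcggcggatgGCGGACgacctcaac
Bcl2l11: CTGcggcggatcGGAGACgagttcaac
Bid: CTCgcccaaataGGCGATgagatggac

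These stretches lie in coding exons at chr1:108609152-108609178 (*Bcl2*, minus strand), chr2:152655433-152655459 (*Bcl2l1*, minus), chr3:95463359-95463385 (*Mcl1*, plus), chr7:52721367-52721393 (*Bax*, minus), chr17:27159476-27159502 (*Bak1*, minus), chr7:16899122-16899148 (*Bbc3*, plus), chr2:127972886-127972912 (*Bcl2l11*, plus) and chr6:120847307-120847333 (*Bid*, minus). The search took any leucine codon (CTN, TTA or TTG), any 3 codons, GGN or GCN, and GAT or GAC, in the reading frame of the coding strand only. It gave exactly 1 match in each of the 8 genes scanned, and *Pmaip1* was not scanned. Such a loose pattern also occurred in 22.1% of all 22737 protein-coding genes, so a match describes the sequence and does not identify a family member. *Bbc3* was the only one of the 8 with an alanine codon in place of the glycine codon.

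Villus epithelium of the duodenum was profiled by bulk RNA-seq of polyadenylated RNA in 6 libraries, each from 1 mouse. The 3 double mutant mice carried Smad4 fl/fl, Ctnnb exon3 fl/wt and Villin-CreERT2 on a background enriched for C57BL6. Tamoxifen removed *Smad4* and exon 3 of β-catenin wherever Villin drives Cre, which is the whole intestinal epithelium. Which tamoxifen protocol these mice received is not stated for the libraries. The study's pan-epithelial protocol, taken here to apply, consisted of 4 daily injections at 0.05 g/kg, and villi were taken 7 days after induction. The study also gave a single lower dose for mosaic induction with the same Cre driver, so the driver does not settle the protocol. The 3 wild-type mice were littermates without injection, so tamoxifen and the mutations cannot be told apart in this comparison. Each group held 1 male (mouse 1) and 2 females (mice 2 and 3), so leaving out mouse 1 also leaves out the only male of its group. The mice were described as matched in age without a stated age.

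Library totals ran from 19678507 to 26337318 counts. Levels are given as CPM, counts scaled to library size with edgeR's TMM factors, and 3 counts, the smallest level taken as detectable, corresponded to 0.114 to 0.152 CPM (counting error only). *Smad4* itself, the label check, had 119.8 to 180.1 CPM in the wild-type mice and 26.1 to 36.8 CPM in the double mutant mice (log2 fold change -2.22, adjusted p = 0.000145, edgeR). *Ctnnb1* counts cannot check the loss of 1 exon, since they were made per gene. Markers of villus enterocytes such as *Apoa1* and *Apoa4* were abundant in all libraries, with 4.33 to 4.82% of the counts on the 12 listed genes in wild-type and 3.20 to 3.55% in double mutant mice (1 gene higher and 6 lower). Markers of fibroblasts and smooth muscle took at most 0.000457% of the counts. Wild-type mouse 1 stood apart with 0.0128% of its counts on goblet cell markers, against 1.41 and 1.45% in the other wild-type mice. The values without it are given beside each member and each called pathway gene whose call they change. Such values are not given for *Smad4* and the cell type markers.

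Of the 9 members, *Bcl2l1* and *Mcl1* were called lower in the double mutant villi and none was called higher. Both are protective members. edgeR's quasi-likelihood test with Benjamini-Hochberg adjustment over 13346 genes called 2 of the 9 lower and 0 higher. The same test called 36.8% of all tested genes (19.7% higher and 17.0% lower), so the share of members called, 22.2%, was under the background. At an unadjusted p under 0.05, 2 members were higher and 2 lower, and DESeq2 and limma-voom likewise called 2 lower and 0 higher. The median log2 fold change was -0.49 over the 9 members and 0.02 over all tested genes, and 7 of the 9 values were negative. For 5 of the 9 members wild-type and double mutant values were fully apart, 1 of them higher and 4 lower, against 52.4% of all tested genes (28.1% higher and 24.2% lower). No member reached the log2 fold change of 2 that the study also required, which 5.30% of all tested genes passed. In bulk tissue, fewer cells of a type and less RNA per cell cannot be told apart.

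**Figure D1:**
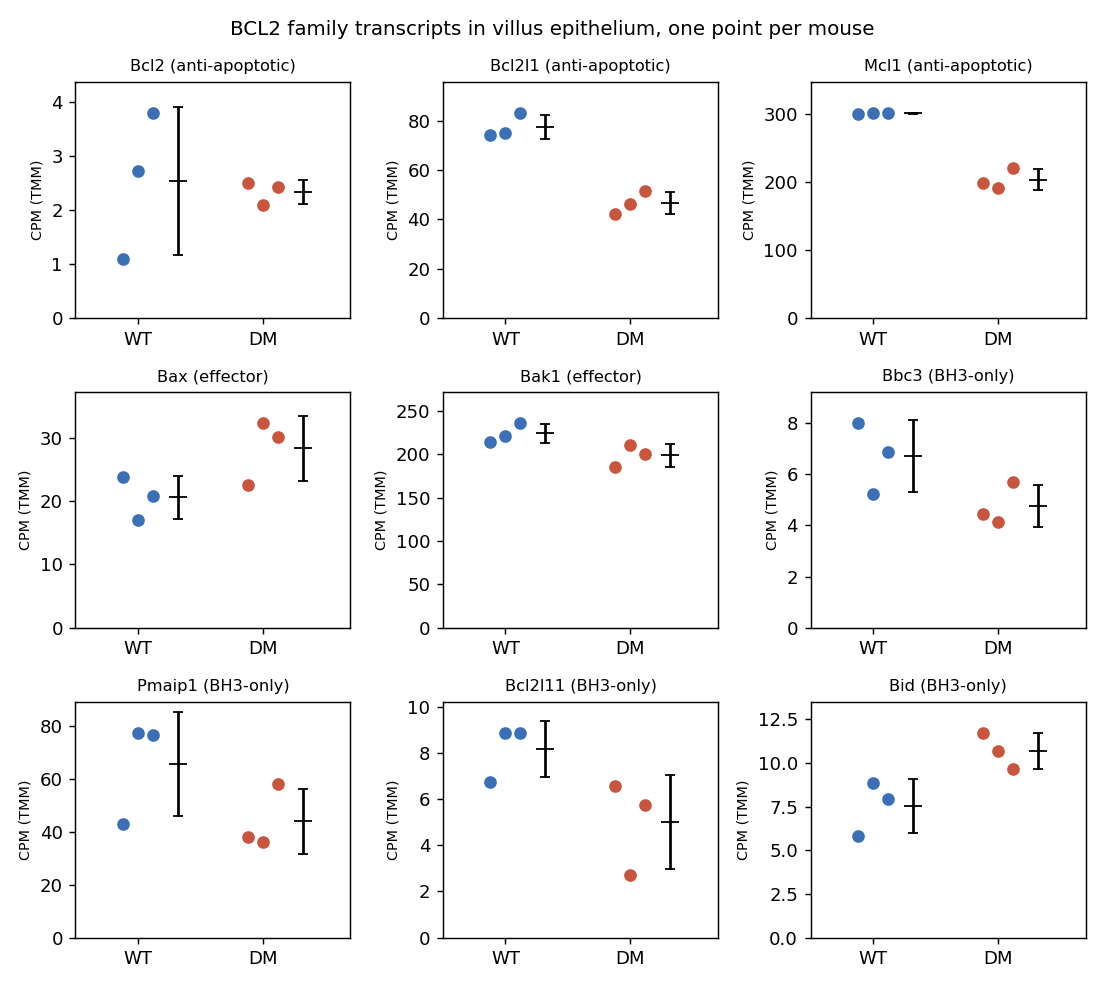
CPM of each member on the vertical axis, starting at 0, with 1 point per mouse for wild-type (WT, blue) and double mutant (DM, red) villi; black marks give the mean and SD of 3 mice. *Bcl2l1* (74.2 to 83.0 against 42.2 to 51.4 CPM) and *Mcl1* show separated groups, while *Bcl2* overlaps widely.

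*Bcl2l1* encodes BCL-XL, a protective protein of the outer mitochondrial membrane. The gene (ENSMUSG00000007659) lies on the minus strand of chromosome 2 from 152593052 to 152657464. Wild-type mice 1 to 3 had 74.2, 75.02 and 83.0 CPM, and double mutant mice 1 to 3 had 42.2, 46.3 and 51.4 CPM. The highest double mutant value was well under the lowest wild-type value. The mean fell from 77.4 ± 4.88 to 46.6 ± 4.61 CPM (SD, n = 3 mice each), or -0.73 on the log2 scale (95% interval -0.998 to -0.464, adjusted p = 0.00208, edgeR). Leave-one-out fits gave log2 fold changes from -0.80 to -0.66, and each of the 6 called it. With library size alone setting the scale, the estimate shrank to -0.54 (adjusted p = 0.00823, edgeR). The annotation lists 9 coding transcripts of this gene, and the counts do not separate the protective long form from the short form that promotes death.

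*Mcl1*, a protective member with a short-lived protein, changed in the same direction. The gene (ENSMUSG00000038612) lies on the plus strand of chromosome 3 from 95462643 to 95467099. Its level was 299.7, 300.9 and 301.1 CPM in wild-type mice 1 to 3, and 197.7, 191.5 and 220.8 CPM in double mutant mice 1 to 3. The wild-type mice were nearly equal and all double mutant mice lay below them. The mean fell from 300.6 ± 0.793 to 203.3 ± 15.5 CPM (SD, n = 3), or -0.56 on the log2 scale (95% interval -0.80 to -0.33, adjusted p = 0.00375, edgeR). The coefficient of variation between the wild-type mice, 0.264%, was below the counting error of 1.27% for this depth, so the closeness of these 3 values is not an estimate of the spread between mice. The 6 leave-one-out fits each called *Mcl1*, with log2 fold changes from -0.62 to -0.52. With library size alone setting the scale, the estimate shrank to -0.37 (adjusted p = 0.0220, edgeR).

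*Bcl2*, the founding member, was the scarcest of the 9 and gave no call. The gene (ENSMUSG00000057329) lies on chromosome 1 from 108434755 to 108610851 on the minus strand. It shares 558 exonic bases with *D630008O14Rik* on the opposite strand. Counts were 26, 50 and 75 in wild-type mice 1 to 3 and 53, 45 and 51 in double mutant mice 1 to 3. In CPM these were 1.08, 2.72 and 3.79 against 2.49, 2.09 and 2.42, so the double mutant mice lay inside the range of the wild-type mice. The log2 fold change was -0.11 (95% interval -1.10 to 0.88, adjusted p = 0.863, edgeR), an interval wide enough to hold both a fall and a rise. Its sign turned when library size alone set the scale (0.07), in limma-voom (0.11) and without wild-type mouse 3 (0.30), and without wild-type mouse 1 it was -0.48. The coefficient of variation was 53.9% in wild-type mice, where counting error alone gives 14.1%, and 9.21% in double mutant mice, where it gives 14.2%.

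The libraries also differed in transcripts of lymphocytes, cells known to express *Bcl2* that an epithelial preparation can hold. Of 11 tested markers of T cells and intraepithelial lymphocytes, 2 were lower (*Ptprc* and *Cd8a*) and 9 were not called. They took 0.00930% of the counts in wild-type mouse 1, 0.0194% and 0.0189% in wild-type mice 2 and 3, and 0.00977%, 0.0103% and 0.0140% in double mutant mice 1 to 3. Among the wild-type mice, mouse 1 was thus lowest in both *Bcl2* and these markers, and the part of lymphocytes in the *Bcl2* level was not tested. Crypt and proliferation markers moved in the opposite direction to *Bcl2l1* and *Mcl1*. Of the 10 tested, 7 were higher and 0 lower, with 0.00791 to 0.0177% of the counts in wild-type and 0.0315 to 0.0415% in double mutant mice. Markers of tuft and enteroendocrine cells moved in the same direction as *Bcl2l1* and *Mcl1*. All 4 tuft markers were lower, with 0.00605 to 0.00830% of the counts in wild-type and 0.000894 to 0.00111% in double mutant mice. Of 5 enteroendocrine markers, 4 were lower and 0 higher, with 0.0175 to 0.0256% of the counts in wild-type and 0.00965 to 0.0104% in double mutant mice. Goblet markers took 0.511 to 0.583% of the counts in double mutant mice (1 of 7 higher and 0 lower), between wild-type mouse 1 and the other wild-type mice. Paneth markers took 0.0136 to 0.0204% in double mutant mice, against 0.000505% in wild-type mouse 1 and 0.0561 and 0.0974% in wild-type mice 2 and 3 (0 of 5 called by edgeR, and 0 at an unadjusted p under 0.05). The part of any of these cell types in the fall of *Bcl2l1* and *Mcl1* was not tested.

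**Figure D2:**
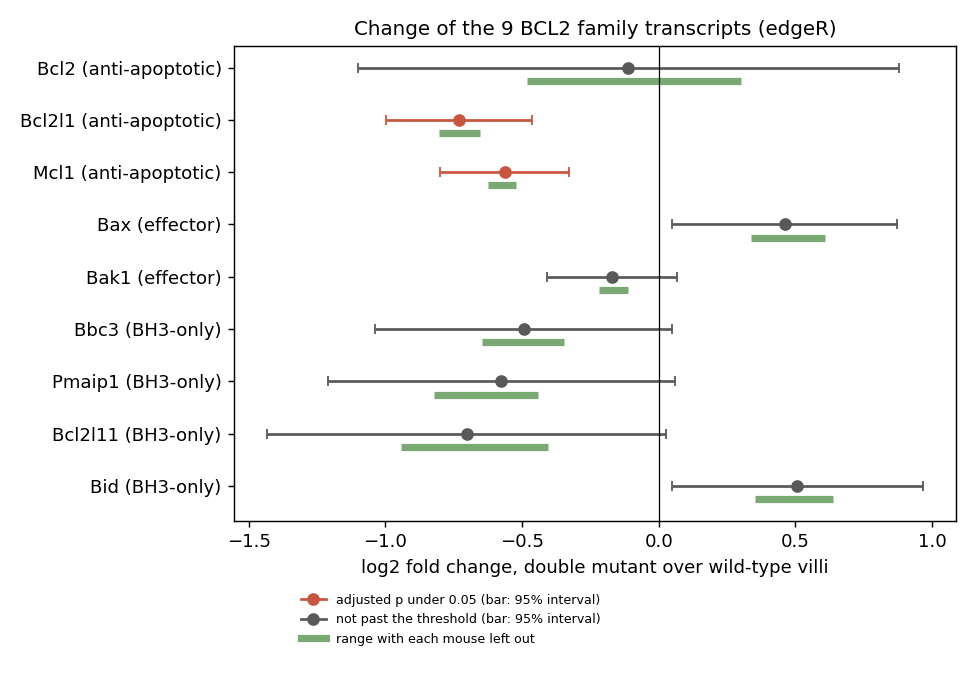
Log2 fold change of each member between double mutant and wild-type villi on the horizontal axis (edgeR). Points are estimates, thin bars 95% intervals and green bars the range with each mouse left out; in red, *Bcl2l1* at -0.73 and *Mcl1* at -0.56 are the members past the adjusted p of 0.05.

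Neither effector was called. *Bax* (ENSMUSG00000003873), whose protein moves from the cytosol to the mitochondrion, lies on chromosome 7 from 52717065 to 52722268 on the minus strand. Its level was 23.9, 17.0 and 20.9 CPM in wild-type mice 1 to 3, and 22.6, 32.3 and 30.1 CPM in double mutant mice 1 to 3. Double mutant mouse 1 lay within the wild-type range while the others lay above it. For *Bax* the log2 fold change was 0.46 (95% interval 0.05 to 0.87, adjusted p = 0.0770, edgeR). This call depended on single mice and on the scale. *Bax* passed without wild-type mouse 1 (log2 fold change 0.58, adjusted p = 0.0342), without double mutant mouse 1 (0.61, adjusted p = 0.0336) and with library size alone (0.65, adjusted p = 0.0185), all by edgeR. Library size alone raised the median of all genes by 0.19 relative to TMM.

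*Bak1* encodes the effector that already resides in the mitochondrial membrane. The gene (ENSMUSG00000057789) lies on chromosome 17 from 27156755 to 27165954 on the minus strand. Wild-type mice 1 to 3 had 214, 221 and 236 CPM, and double mutant mice 1 to 3 had 185, 211 and 201 CPM. The groups did not overlap, although double mutant mouse 2 came close to wild-type mouse 1. The log2 fold change of -0.17 (95% interval -0.41 to 0.07) had an adjusted p of 0.229 (edgeR), and with library size alone it was 0.02. *Bak1* shares 357 exonic bases with *Ggnbp1* on the opposite strand, and the strand setting of the counting is not given in the sources used here.

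None of the 4 BH3-only members was called in either direction. At an unadjusted p under 0.05, edgeR had 1 higher and 0 lower, and both DESeq2 and limma-voom called 0. *Bid* (chromosome 6, 120841948 to 120866871, minus strand), which links death receptors to the mitochondrion after cleavage by caspase 8, was the one with a positive value. It had 5.83, 8.87 and 7.94 CPM in wild-type mice 1 to 3, and 11.7, 10.7 and 9.68 CPM in double mutant mice 1 to 3. All double mutant mice lay above all wild-type mice. The log2 fold change was 0.51 (95% interval 0.05 to 0.97, adjusted p = 0.0791, edgeR), and with library size alone it passed (0.70, adjusted p = 0.0285). *Bid* shares 628 exonic bases with *Bcl2l13* on the opposite strand.

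*Bcl2l11* encodes BIM, which binds all protective members. Its gene lies on the plus strand of chromosome 2 from 127951774 to 127988283. Levels were 6.75, 8.87 and 8.85 CPM in wild-type mice 1 to 3, and 6.57, 2.69 and 5.74 CPM in double mutant mice 1 to 3. The groups were apart by a narrow margin, and double mutant mouse 2 was far below the other libraries. With a log2 fold change of -0.70, *Bcl2l11* had nearly the same estimate as *Bcl2l1*, but the interval was wide (-1.43 to 0.03, adjusted p = 0.119, edgeR). Leaving out double mutant mouse 2 moved the estimate to -0.41, and none of the 6 leave-one-out fits called it.

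*Pmaip1* encodes NOXA, which binds MCL1, and was the most abundant BH3-only member. Its gene lies on the plus strand of chromosome 18 from 66618258 to 66625204. The level was 43.0, 77.5 and 76.7 CPM in wild-type mice 1 to 3, and 37.9, 36.0 and 58.2 CPM in double mutant mice 1 to 3. Wild-type mouse 1 lay among the double mutant mice. The log2 fold change was -0.58 (95% interval -1.21 to 0.06, adjusted p = 0.138, edgeR), and without wild-type mouse 1 it was -0.81 with an adjusted p of 0.0107.

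*Bbc3* encodes PUMA, a target of p53. The gene lies on the plus strand of chromosome 7 from 16894965 to 16903554. It had 7.998, 5.22 and 6.87 CPM in wild-type mice 1 to 3, and 4.46, 4.13 and 5.70 CPM in double mutant mice 1 to 3. Double mutant mouse 3 exceeded wild-type mouse 2, so the groups overlapped. Its log2 fold change was -0.49 (95% interval -1.04 to 0.05, adjusted p = 0.139, edgeR).

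Ratios between 2 genes of the same library do not depend on how the library is scaled. *Bax* to *Bcl2* was 22.0, 6.24 and 5.51 in wild-type mice 1 to 3, and 9.08, 15.5 and 12.4 in double mutant mice 1 to 3. The groups overlapped (mean log2 difference 0.40, exact two-sided permutation p = 0.6, with 0.1 as the smallest p that 3 mice against 3 allow). Wild-type mouse 1, with 26 counts of *Bcl2*, held the highest ratio. Without it the mean log2 difference was 1.04, without wild-type mouse 2 it was 0.13 and without wild-type mouse 3 it was 0.04.

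The ratios of effectors to *Bcl2l1* and *Mcl1* were computed after the levels had been seen and are given without a test. *Bax* to *Bcl2l1* was 0.322, 0.226 and 0.251 in wild-type mice 1 to 3, and 0.535, 0.698 and 0.585 in double mutant mice 1 to 3. The mean of *Bak1* to *Bcl2l1* was 2.89 ± 0.0535 in wild-type mice and 4.28 ± 0.333 in double mutants, and *Bak1* to *Mcl1* a mean of 0.745 ± 0.0351 and 0.981 ± 0.104 (SD, n = 3). In each of these ratios, every double mutant mouse lay above every wild-type mouse.

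Summed per kilobase of annotated exon, the 3 protective transcripts were nearly as abundant as the 2 effectors in wild-type villi and less so in double mutant villi. The ratio was 0.953, 0.981 and 0.920 in wild-type mice 1 to 3, and 0.705, 0.582 and 0.704 in double mutant mice 1 to 3, a mean log2 difference of -0.52. With a mouse left out the difference ran from -0.57 to -0.43. Without division by length the mean ratio was 1.56 in wild-type and 1.12 in double mutant mice, so its level depends on the lengths used. *Mcl1* made up 82.7 to 84.5% of the protective sum in wild-type mice and 84.5 to 86.0% in double mutant mice, so the sum follows this gene above all.

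**Figure D3:**
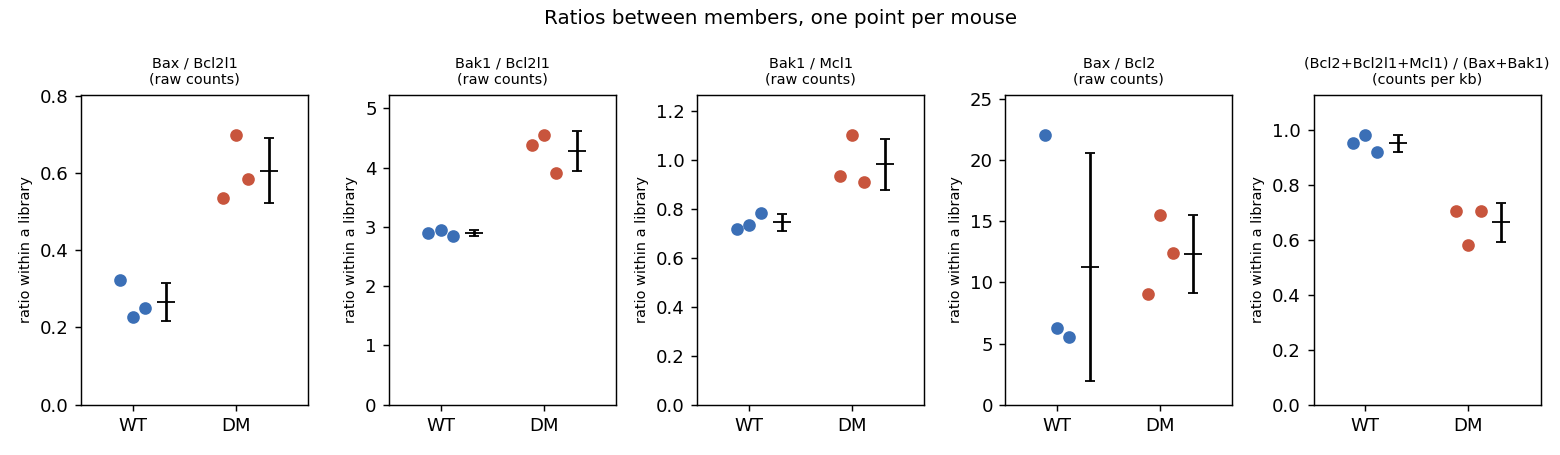
Ratios between members within a library on the vertical axes, starting at 0, with 1 point per mouse (blue wild-type, red double mutant) and the mean and SD in black. *Bax* to *Bcl2l1* and the other ratios with *Bcl2l1* or *Mcl1* are apart between groups, while *Bax* to *Bcl2* overlaps, with wild-type mouse 1 at 22.0.

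Levels per kilobase of annotated exon allow the members to be ordered among themselves, with a limit. The length counts every annotated exon of a gene, and which of its transcripts were expressed was not tested. Uneven coverage along the transcripts was not tested either. In wild-type villi, *Bak1* (93.0 ± 4.59 CPM per kb, SD, n = 3) and *Mcl1* (86.2 ± 0.227 CPM per kb) led, without overlap. *Pmaip1* (24.8 ± 7.44), *Bcl2l1* (16.4 ± 1.03) and *Bax* (15.4 ± 2.58 CPM per kb) followed, and neighbours among these 3 overlapped between mice. *Bbc3* (3.34 ± 0.695), *Bid* (2.13 ± 0.438), *Bcl2l11* (1.02 ± 0.152) and *Bcl2* (0.352 ± 0.190 CPM per kb) were lower, in that order and without overlap between neighbours. *Bcl2* thus stood at percentile 10.9 of all tested genes per kilobase and *Mcl1* at percentile 94.2.

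In double mutant villi the ends of this order were the same, with *Bak1* at 82.5 ± 5.40, *Mcl1* at 58.3 ± 4.44 and *Bcl2* at 0.324 ± 0.0299 CPM per kb. The middle changed. *Bax* (21.2 ± 3.81 CPM per kb) stood above *Bcl2l1* (9.85 ± 0.974 CPM per kb) in all 3 double mutant mice, and its values overlapped those of *Pmaip1* (16.7 ± 4.65 CPM per kb). *Bid* (3.02 ± 0.289) and *Bbc3* (2.37 ± 0.412 CPM per kb) overlapped, as did *Bcl2l11* (0.623 ± 0.255 CPM per kb) and *Bcl2*.

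**Figure D4:**
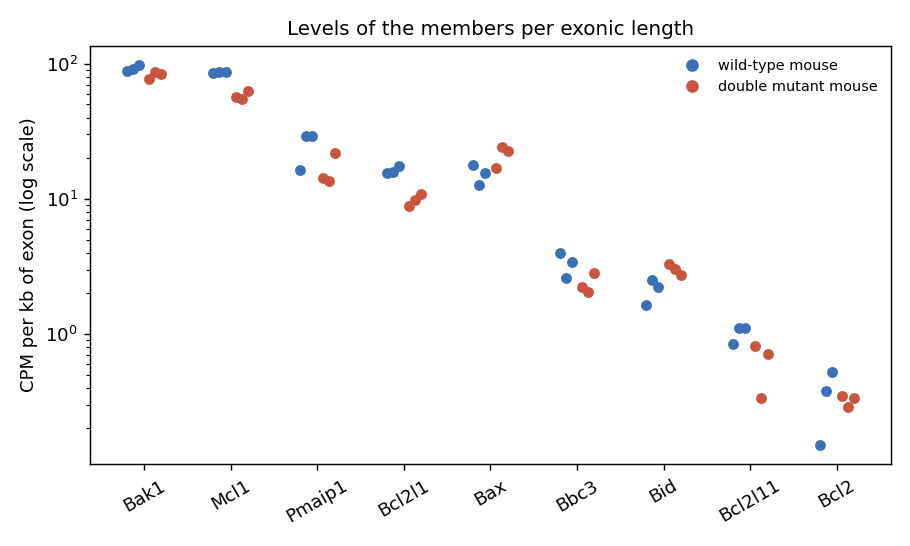
CPM per kilobase of exon on a log scale for the 9 members, ordered by their wild-type mean, with 1 point per mouse (blue wild-type, red double mutant). *Bak1* and *Mcl1* lead in both groups, *Bcl2* is lowest, and the red points of *Bax* lie above those of *Bcl2l1*.

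Beyond the 9 members, 15 of 16 other listed BCL2 family genes were in the table and 10 were tested, of which 2 were higher, 1 lower and 7 not called. *Bcl2l2* encodes BCL-W, another protective member. It had 47.9, 53.3 and 43.4 CPM in wild-type mice 1 to 3 and 25.96, 30.7 and 30.4 CPM in double mutant mice 1 to 3, all below the wild-type range. It fell by 0.73 on the log2 scale (SE 0.129, adjusted p = 0.00313, edgeR), an estimate equal to that of *Bcl2l1* to 2 decimals. The genes that rose, *Bcl2l15* and *Bcl2l14*, encode BCL2-related proteins whose part in cell death is less settled. *Bcl2l15* had 23.9, 18.2 and 15.8 CPM in wild-type mice 1 to 3 and 63.5, 104 and 60.9 CPM in double mutant mice 1 to 3 (log2 fold change 1.98, SE 0.245, adjusted p = 0.000782, edgeR). *Bcl2l14* rose from 35.8 ± 2.85 to 64.8 ± 4.93 CPM (SD, n = 3; log2 fold change 0.86, adjusted p = 0.00104, edgeR).

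The wider apoptosis pathway was followed in 7 lists, this family list included, with 62 of 71 genes tested. Of these, 8 were higher and 8 lower, or 25.8% against 36.8% of all tested genes, and their median log2 fold change was -0.12. Library size alone gave 11 higher and 4 lower.

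Downstream of the members, none of the 9 genes for mitochondrial channels and released factors was called by edgeR (0 higher and 1 lower at an unadjusted p under 0.05). DESeq2 called 1 of them lower and limma-voom 0. Their log2 fold changes ran from -0.49 to 0.10, and *Cycs*, which encodes the released cytochrome c, was among them at -0.12. Of 10 genes for the apoptosome, caspases and their substrates, 3 were higher and 1 lower. *Parp1*, encoding a DNA repair enzyme that caspases cleave, rose from 4.93 ± 2.14 to 12.8 ± 0.591 CPM (SD, n = 3; log2 fold change 1.39, adjusted p = 0.0113, edgeR). The others that rose, named after their values were seen, were *Casp2* (log2 fold change 0.75) and *Dffb* (0.73), a caspase and the nuclease that cuts DNA in dying cells. *Casp9*, the caspase of the apoptosome, had a log2 fold change of -0.38 and passed as lower (adjusted p = 0.0381, edgeR), a call that of the 6 leave-one-out fits only the fit without wild-type mouse 3 kept (without wild-type mouse 1, log2 fold change -0.35 and adjusted p = 0.0767). The *Casp9* call was also lost with library size alone (-0.18, adjusted p = 0.253) and with no filter on low counts (adjusted p = 0.0610, edgeR).

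Among 7 inhibitors of apoptosis, 1 was lower and 0 higher, with 4 lower and 1 higher at an unadjusted p under 0.05. DESeq2 called 2 lower and 0 higher, and limma-voom 1 lower and 0 higher. The gene called by edgeR was *Birc2*, encoding the ubiquitin ligase cIAP1, which fell from 49.4 ± 4.48 to 31.6 ± 1.01 CPM (SD, n = 3; log2 fold change -0.64, adjusted p = 0.00333, edgeR). Among 9 death receptor genes, 1 was lower and 0 higher, with 2 lower and 0 higher at an unadjusted p under 0.05, and 1 lower and 0 higher by both DESeq2 and limma-voom. The gene called by edgeR was *Cflar*, whose product c-FLIP restrains caspase 8. *Cflar* had 106, 122 and 94.7 CPM in wild-type mice 1 to 3 and 70.6, 57.2 and 67.4 CPM in double mutant mice 1 to 3, without overlap (log2 fold change -0.72, adjusted p = 0.00396, edgeR). Of 5 tested genes that set the turnover of MCL1 protein, *March5*, encoding a mitochondrial ubiquitin ligase, was lower (log2 fold change -0.40, adjusted p = 0.0208, edgeR) and 4 were not called. That call was lost without wild-type mouse 1 or 2 and without double mutant mouse 2 or 3, with adjusted p-values up to 0.0820 (without wild-type mouse 1, log2 fold change -0.34 and adjusted p = 0.0505). Library size alone also ended the *March5* call (-0.21, adjusted p = 0.158, edgeR).

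**Figure D5:**
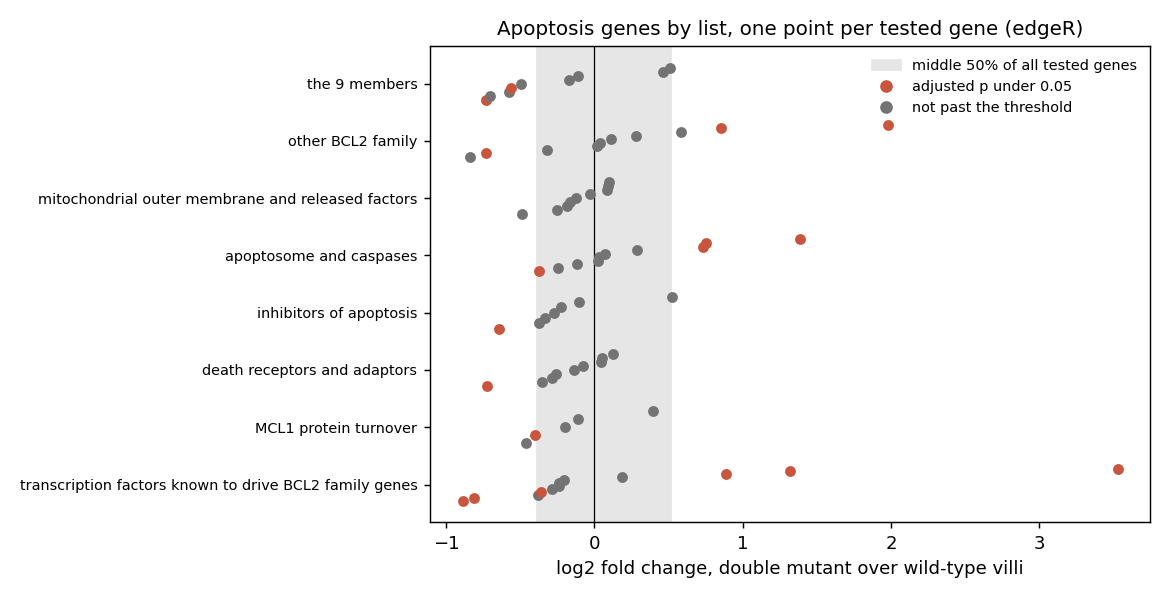
Log2 fold change between double mutant and wild-type villi on the horizontal axis for every tested gene of the 9 members and the 7 pathway lists, 1 point per gene (edgeR). Red points passed an adjusted p of 0.05; the grey band spans the quartiles of all tested genes (-0.39 to 0.52), and *Myc* at 3.53 lies farthest to the right.

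Of 12 tested transcription factors known to act on BCL2 family genes, 3 were higher and 3 lower. *Trp53*, which encodes p53 and acts on *Bbc3*, *Pmaip1* and *Bax*, had 16.7, 17.0 and 20.02 CPM in wild-type mice 1 to 3, and 36.0, 33.9 and 29.4 CPM in double mutant mice 1 to 3 (log2 fold change 0.89, SE 0.137, adjusted p = 0.00175, edgeR). The groups were well apart, and each of the 6 leave-one-out fits called it. None of *Bbc3*, *Pmaip1* and *Bax* was called. *Myc*, whose product drives growth and can raise BIM, rose from 1.62 ± 1.08 to 18.4 ± 2.73 CPM (SD, n = 3; log2 fold change 3.53, adjusted p = 0.00234, edgeR). *Foxo3*, whose product acts on *Bcl2l11* and *Bbc3*, fell from 110.0 ± 16.7 to 59.4 ± 10.6 CPM (SD, n = 3; log2 fold change -0.89, adjusted p = 0.00383, edgeR) and was called in each of the 6 leave-one-out fits. The other calls, named after their values were seen, were *E2f1* (log2 fold change 1.32), *Ddit3* (-0.81) and *Stat3* (-0.36). Leaving out 1 mouse ended each of these calls in 4 of 6 cases: *E2f1* without wild-type mouse 1 or 2 or double mutant mouse 2 or 3, *Ddit3* without wild-type mouse 1 or any double mutant mouse, and *Stat3* without wild-type mouse 2 or 3 or double mutant mouse 2 or 3. Without wild-type mouse 1 the log2 fold change of *E2f1* was 1.27 (adjusted p = 0.0507) and that of *Ddit3* -0.46 (adjusted p = 0.0565, both edgeR). Library size alone ended the calls of *Stat3* (-0.17, adjusted p = 0.293) and *Ddit3* (-0.61, adjusted p = 0.0762), and having no filter on low counts ended that of *Stat3* (adjusted p = 0.0523, edgeR).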

How the data were processed

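Villus RNA of 6 mice was sequenced, and the raw counts per gene that the authors deposited, 1 column per mouse, came from HISAT2 alignment to mm9 and featureCounts. The strand setting and the handling of reads that match several places are not given in the sources used here. Of 20073 Ensembl identifiers, 20032 matched GENCODE on mm9, the source of symbols, coordinates and exonic lengths.

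Genes were filtered with filterByExpr, scaled by TMM and tested with the quasi-likelihood test of edgeR 4.0.16 in R 4.3.3, with adjusted p under 0.05 as the call. Intervals are the log2 fold change with its standard error and the t quantile of the fit's degrees of freedom. DESeq2 1.42.0 and limma 3.58.1 were alternatives, besides other scalings and filters, a replicate block, sex as a covariate and leaving out each mouse. The edgeR test was first run on simulated counts, where it called 61.2% of genes with a true absolute log2 fold change of 1. Every member's estimate was smaller than that, so a member without a call can still have changed. Members and lists were chosen with earlier results of these data known. Named genes are the members, *Smad4* and *Ctnnb1*, the largest called rise and fall of each list (up to 2 each way for the other family genes), *Trp53* and *Myc*, up to 2 leading genes of a marker list, and the 3 genes most alike to the member with the smallest adjusted p. Other names were added after their values were seen and are marked so where they appear. *Cycs*, *Ptprc* and *Cd8a* were also named after their values were seen, and are marked only here.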

Additional observations from a re-analysis of the deposited data

How the results depend on the processing

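The 2 members called lower, *Bcl2l1* and *Mcl1*, were called in the same direction by DESeq2, limma-voom and every edgeR alternative on scaling, filtering and covariates, and in each of the 6 leave-one-out fits. With the study's log2 fold change threshold of 2 added, 0 members were lower. Members called higher were 2 with library size alone and 0 to 1 with a mouse left out. Members called lower were 2 to 3 with a mouse left out. With the replicate block, 0 members were higher and 2 lower, and pathway genes were 7 higher and 4 lower. Pathway genes called lower were 4 with library size alone, and 4 to 10 with a mouse left out. Those called higher ran from 7 to 8 with a mouse left out. With the fold threshold added, 1 pathway gene was higher and 0 lower. The *Bax* to *Bcl2* log2 difference ran from 0.04 to 1.04 with a mouse left out, and paired by replicate number it was 0.40 (exact sign-flip p = 0.75). The log2 fold change of *Bcl2* turned positive in limma-voom (0.11), with library size alone (0.0714), with the replicate block (0.0238), with sex as a covariate (0.00862) and without wild-type mouse 3 (0.30, with -0.48 as the lowest value with a mouse left out), and that of *Bak1* with library size alone (0.0195). The replicate block also ended the calls of *Casp9*, *March5*, *E2f1*, *Ddit3* and *Stat3*, with adjusted p-values from 0.0540 to 0.0946 (edgeR). Deviations of same-numbered mice from their group means correlated by 0.0224, -0.109 and 0.0123. With 3 mice per group, these values cannot decide whether replicate numbers pair the mice. The cause of these changes was not tested.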

Other observations

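Family genes known from blood cells or from single tissues had few counts. Of those in the table that did not pass the main filter on low counts, *Bcl2l10* had 0 to 5 counts per mouse, *Bcl2a1a* 0 to 2, *Bcl2a1b* 0 to 5, *Bcl2a1d* 0 to 10 and *Bik* 0 to 4. The main test therefore gave no result for them. Among all tested genes, the pattern of *Bcl2l1* over the 6 mice was matched most closely by *2310021P13Rik*, *Gm10425* and *Leng9*, with Pearson correlations of log2 CPM of 1.00, 0.999 and 0.998 as a description over 6 libraries that differ mainly by group.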
